A study of Oryza sativa and Arabidopsis thaliana with 16 samples.

Results

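COR15A, COR15B, COR47 and LTI30 are cold-regulated (COR) genes of Arabidopsis thaliana whose proteins guard cells against freezing and drying. They were taken as the probe sets that the platform annotation of the Affymetrix ATH1 array assigns to each of these genes and to no other gene. Each gene had 1 such probe set, which gave 4 of the 13350 genes that a single-gene probe set names on the array. No probe set was annotated to a member together with another gene. The probe sets are 263497_at for COR15A (Entrez Gene 818854), 263495_at for COR15B (818853), 259570_at for COR47 (838632) and 252102_at for LTI30 (824261).

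All 4 encode hydrophilic proteins of the late embryogenesis abundant (LEA) type, which stay soluble and partly unfolded and associate with membranes or other proteins when water is withdrawn. COR47 and LTI30 are dehydrins, a LEA family of the cytosol and its membranes. COR15A and COR15B are close relatives of each other and enter the chloroplast. Their genes are textbook targets of the CBF/DREB transcription factors, which bind the C-repeat or dehydration-responsive element in the promoter, and of abscisic acid signalling. They are known to respond to cold, drought, high salt and abscisic acid, and are for that reason used as markers of osmotic and cold stress.

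The plants were wild-type Arabidopsis seedlings aged 13 days, grown in hydroponics at 22 °C under 50 μE of light, with 0.5 mM ammonium succinate as nitrogen source and 3 mM sucrose. Their seeds had been kept in the dark at 4 °C for 2 days before sowing. The 4 groups of 2 arrays were roots given nitrogen, roots given KCl, shoots given nitrogen and shoots given KCl. Nitrogen plants received 20 mM KNO3 with 20 mM NH4NO3 for 2 h from the start of the light period, and KCl plants received 20 mM KCl. The added salt therefore came to 40 mM in nitrogen plants and 20 mM in KCl plants, with nitrate, ammonium and chloride differing as well. These differences cannot be told apart in this design, and none of the 4 groups went without added salt. The protocols speak of whole seedlings, whereas each title and tissue label says root or shoot, and the groups follow the tissue label. The series also holds 8 rice arrays, which were not used here.

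Values are log2 signals from RMA (robust multi-array average), which subtracts background, brings arrays to a common scale and gives each probe set a single value. Differences are differences of log2 group means with the standard error of a limma model over all 8 arrays. A probe set was called when its two-sided p, adjusted by Benjamini-Hochberg over 22746 probe sets, was under 0.05. Replicate arrays correlated at 0.987 for root nitrogen, 0.956 for root KCl, 0.981 for shoot nitrogen and 0.993 for shoot KCl. The root KCl arrays had a higher lower quartile (4.69 and 4.75) than the root nitrogen arrays (4.53 and 4.54). The upper quartile of the root KCl arrays was lower, at 6.92 and 6.83 against 7.22 and 7.20. Of 31 green-tissue genes, chiefly of the photosystems and their antennae, 29 were called lower in roots (beside 16.5% of all probe sets). Their mean log2 signal was 6.63 to 7.46 on root arrays and 10.31 to 10.76 on shoot arrays. Nitrate-response genes were chosen to check the treatment with earlier results of these data known, so the check is not independent. Of the 21 genes chosen, 5 were named by the annotation. Of these, 4 were called higher with nitrogen in roots, by 1.46 to 2.50, and 2 in shoots, by 1.67 and 3.39. Of all probe sets, 6.94% were called higher in roots, and 0.637% were called in either direction in shoots.

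LTI30 and COR47, both dehydrins, were higher in roots than in shoots under either treatment, by 22.3-fold and 3.55-fold averaged over treatments. COR15A and COR15B were near the bottom of the signal range in both tissues. The 2 h nitrogen treatment moved none of the 4 genes past the threshold in either tissue. LTI30 had the largest nitrogen difference of the 4, at 0.66 in roots, with an adjusted p of 0.160.

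LTI30 is a dehydrin that binds membranes and is induced by low temperature. Its log2 signal was 11.99 and 11.58 in nitrogen roots, 11.22 and 11.03 in KCl roots, 7.53 and 6.74 in nitrogen shoots, and 6.70 and 6.96 in KCl shoots. Every root array was thus above every shoot array, with a gap of 3.50 between the lowest root and the highest shoot value. Its percentile among all probe sets of the same array was 98.9 to 99.7 on root arrays and 68.1 to 79.8 on shoot arrays. A percentile places the signal on its array and is no measure of transcript number.

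COR47 is an acidic dehydrin first known from cold-treated leaves. Its log2 signal was 10.10 and 10.23 in nitrogen roots, 9.91 and 9.77 in KCl roots, 8.69 and 7.92 in nitrogen shoots, and 7.80 and 8.29 in KCl shoots. Root and shoot arrays again did not overlap, here with a gap of 1.08. The shoot replicates were wider apart (0.77 with nitrogen and 0.48 with KCl) than the root replicates (0.13 with nitrogen and 0.14 with KCl).

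COR15A encodes a chloroplast protein that stabilises membranes during freezing. Its log2 signal was 4.23 and 4.17 in nitrogen roots, 4.34 and 4.60 in KCl roots, 4.20 and 4.15 in nitrogen shoots, and 4.13 and 4.32 in KCl shoots. All 8 values lay within 0.47 of each other, and root and shoot arrays overlapped. Its percentile on the array ran from 5.96 to 18.4. RMA values carry no detection call, so whether the transcript was present was not determined.

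COR15B encodes the closely related chloroplast protein. Its log2 signal was 4.36 and 4.31 in nitrogen roots, 4.92 and 4.48 in KCl roots, 4.77 and 4.59 in nitrogen shoots, and 4.79 and 4.82 in KCl shoots. The 8 values spanned 0.61, with the highest and the lowest both from roots. Its percentile on the array was 13.4 to 34.5. The labels give 22 °C as growth temperature and no move to the cold after sowing.

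**Figure D1:**
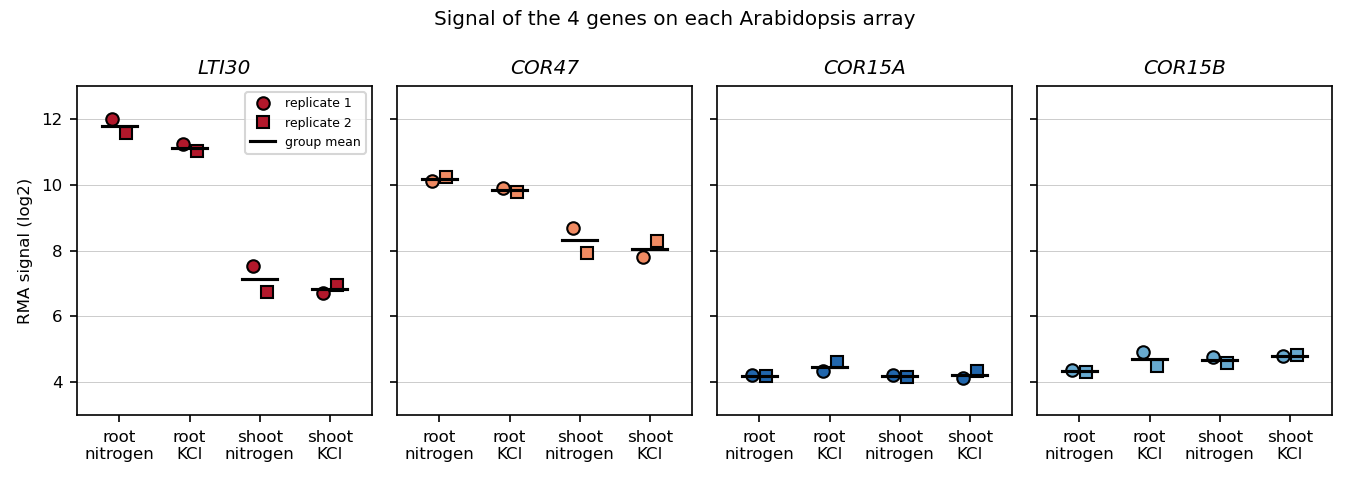
RMA log2 signal (vertical axis) of LTI30, COR47, COR15A and COR15B on each of the 8 arrays, with 2 arrays (circle and square for replicates 1 and 2) and their mean (bar) in each of the 4 groups along the horizontal axis. LTI30 and COR47 sit higher on every root array than on any shoot array, while COR15A and COR15B stay between 4.13 and 4.92 throughout.

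The comparison of root with shoot asks where in the seedling each gene was expressed. Averaged over both treatments, 2 of the 4 genes were called, both higher in roots, where 35.8% of all probe sets were called (19.3% higher in roots and 16.5% lower). LTI30 averaged 11.79 ± 0.29 in nitrogen roots against 7.13 ± 0.56 in nitrogen shoots, and 11.13 ± 0.13 in KCl roots against 6.83 ± 0.18 in KCl shoots (SD, n = 2 each). The root minus shoot difference was 4.48 ± 0.20 (SE), a 22.3-fold higher signal in roots with a 95% interval of 16.1 to 30.7, at an adjusted p of 5.33e-06. Only 0.523% of probe sets differed more between the tissues in either direction. In bulk tissue, fewer cells of a type and less RNA per cell cannot be told apart.

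COR47 averaged 10.17 ± 0.10 in nitrogen roots against 8.31 ± 0.54 in nitrogen shoots, and 9.84 ± 0.10 in KCl roots against 8.05 ± 0.34 in KCl shoots (SD, n = 2 each). Its root minus shoot difference was 1.83 ± 0.19 (SE), or 3.55-fold with a 95% interval of 2.59 to 4.86, at an adjusted p of 0.000335. Among all probe sets, 6.71% had a larger tissue difference.

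For both dehydrins the tissue difference was present in each treatment on its own. With nitrogen, where 23.3% of probe sets were called, roots exceeded shoots by 4.65 ± 0.28 for LTI30 (adjusted p = 4.96e-05) and by 1.86 ± 0.27 for COR47 (adjusted p = 0.00276). With KCl, where 31.2% of probe sets were called, the difference was 4.30 ± 0.28 for LTI30 (adjusted p = 5.94e-05) and 1.80 ± 0.27 for COR47 (adjusted p = 0.00279). Both calls held in each other setting tried, among them every fit that left out 1 array. The group order by mean was the same for both genes, with nitrogen roots highest, then KCl roots, nitrogen shoots and KCl shoots. Within a tissue, nitrogen and KCl neighbours in that order did not differ past the threshold. Separation of all 4 root arrays from all 4 shoot arrays, as seen for these 2 genes, was found for 31.2% of probe sets.

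The chloroplast-targeted members differed little between the tissues. For COR15A the root minus shoot difference averaged over treatments was 0.13, with a 95% interval of -0.10 to 0.37 and an adjusted p of 0.345. For COR15B it was -0.22, with an interval of -0.50 to 0.06 and an adjusted p of 0.190. Without root KCl replicate 1 the COR15B difference was -0.33 and passed the threshold (adjusted p = 0.0186). Differences of dim probe sets are compressed on this scale, so these intervals may understate the range of true differences. The green-tissue genes, many of whose products also work in the chloroplast, had a median root minus shoot difference of -3.50 on the same arrays.

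**Figure D2:**
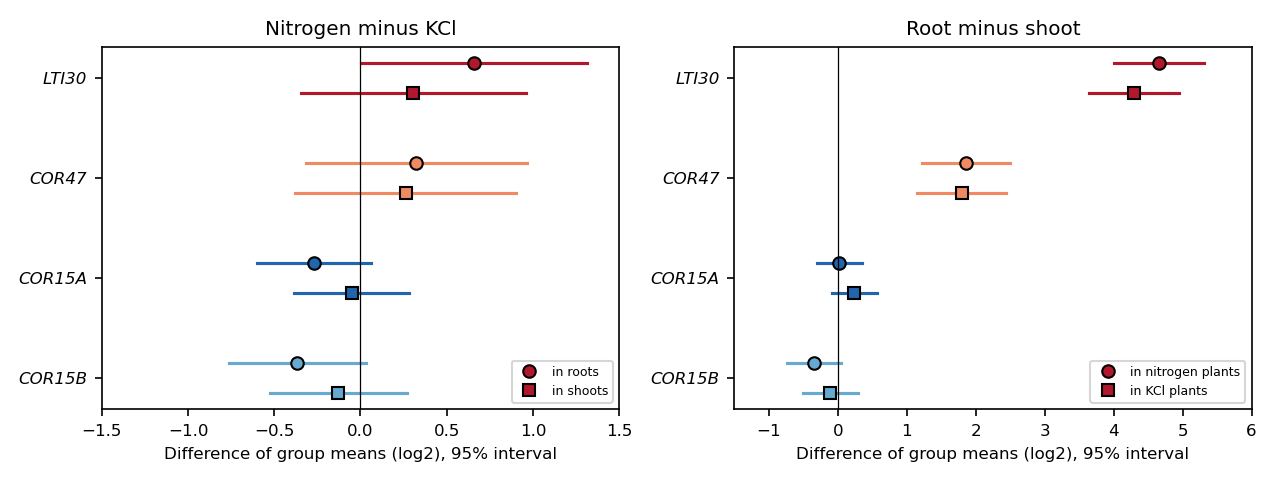
Differences of log2 group means (symbols) with 95% intervals from the limma fit (lines) for the 4 genes, nitrogen minus KCl in roots and shoots on the left and root minus shoot in nitrogen and KCl plants on the right. The intervals of LTI30 and COR47 for root minus shoot lie wholly above 0, and of the nitrogen differences only that of LTI30 in roots does (lower bound 0.0044), before adjustment over all probe sets.

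The comparison of nitrogen with KCl bears on the extra salt that nitrogen plants received, since these genes are known to be induced by salt. In roots none of the 4 was called by limma, against 11.4% of all probe sets (6.94% higher and 4.44% lower), and 1 of the 4, LTI30, had an unadjusted p under 0.05, as 30.8% of all probe sets did. LTI30 was 11.99 and 11.58 in nitrogen roots against 11.22 and 11.03 in KCl roots, so the nitrogen arrays were both above the KCl arrays. The difference was 0.66 ± 0.28 (SE), a 1.58-fold signal with a 95% interval of 1.003 to 2.48, at an unadjusted p of 0.0488 and an adjusted p of 0.160. Among all probe sets 15.6% had a larger difference in roots. The KCl root arrays had lower signals at the upper quartile. Over every setting tried, quantile normalisation among them, the LTI30 difference was 0.45 to 0.86.

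COR47 was 0.32 ± 0.27 higher in nitrogen than in KCl roots, a 1.25-fold signal with an interval of 0.802 to 1.95 and an adjusted p of 0.450. Over every setting tried the COR47 difference was 0.23 to 0.39. The SE pools the spread of all 4 groups. COR47 replicates had an SD of 0.10 in either root group, but of 0.54 in nitrogen shoots and 0.34 in KCl shoots. COR15A and COR15B had values on the other side of 0. COR15A differed by -0.27 ± 0.14, with an interval of -0.60 to 0.06 and an adjusted p of 0.240. COR15B differed by -0.37 ± 0.17, with an interval of -0.76 to 0.03 and an adjusted p of 0.190. For each of the 4 genes the 2 nitrogen root arrays did not overlap the 2 KCl root arrays, but neither did they for 57.3% of all probe sets.

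The COR15A and COR15B differences in roots depended on the KCl arrays. COR15A was highest on KCl root replicate 2 (4.60) and COR15B on KCl root replicate 1 (4.92). Without KCl root replicate 2 the COR15B difference became -0.58 and passed the threshold (adjusted p = 0.0317), and without replicate 1 it was -0.15. The KCl root arrays also carried higher signals at the low end of the range, with a 10th percentile of 4.36 and 4.40 against 4.21 and 4.21 on the nitrogen root arrays. After quantile normalisation, which gives every array the same distribution, the difference was -0.09 for COR15A and -0.21 for COR15B. By percentile on its own array COR15A overlapped between nitrogen roots (10.7 and 8.37) and KCl roots (8.82 and 18.4).

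In shoots none of the 4 was called with nitrogen by limma, where 0.637% of all probe sets were called. None had an unadjusted p under 0.05, as 6.88% of all probe sets did. LTI30 differed by 0.31 ± 0.28 (fold 1.24, 95% interval 0.786 to 1.95) and COR47 by 0.26 ± 0.27 (fold 1.20, interval 0.769 to 1.87). Both rested on nitrogen shoot replicate 1, and without it they were -0.09 for LTI30 and -0.12 for COR47. COR15A differed by -0.05, with an interval of -0.38 to 0.28. For COR15B the difference was -0.13, with an interval of -0.52 to 0.27. COR15B was the only one of the 4 whose shoot nitrogen arrays (4.77 and 4.59) did not overlap the shoot KCl arrays (4.79 and 4.82), a separation found for 34.4% of probe sets.

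Averaged over the tissues, none of the 4 was called for nitrogen against KCl, where 3.21% of probe sets were called. LTI30 had the largest value, 0.48 ± 0.20, with an unadjusted p of 0.0431 and an adjusted p of 0.213, and leaving out 1 array gave 0.28 to 0.68. COR15B differed by -0.25 ± 0.12 (adjusted p = 0.280), and without KCl root replicate 2 by -0.36, which passed the threshold (adjusted p = 0.0483). The root and shoot responses did not differ past the threshold for any of the 4, in an interaction test that called 0.484% of probe sets. The root minus shoot response was 0.35 ± 0.39 for LTI30 (adjusted p = 0.653) and 0.06 ± 0.38 for COR47 (adjusted p = 0.944). It was -0.22 ± 0.20 for COR15A (adjusted p = 0.580) and -0.24 ± 0.24 for COR15B (adjusted p = 0.614). These values ranged from -0.35 to -0.09 for COR15A and from -0.45 to -0.02 for COR15B when 1 array was left out, with both ends set by the KCl root arrays. Induction by the treatment of more than 2.48-fold for LTI30 or 1.95-fold for COR47 in roots lay outside the 95% intervals of this fit. These intervals rest on 2 arrays a group and on a spread pooled over both tissues.

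**Figure D3:**
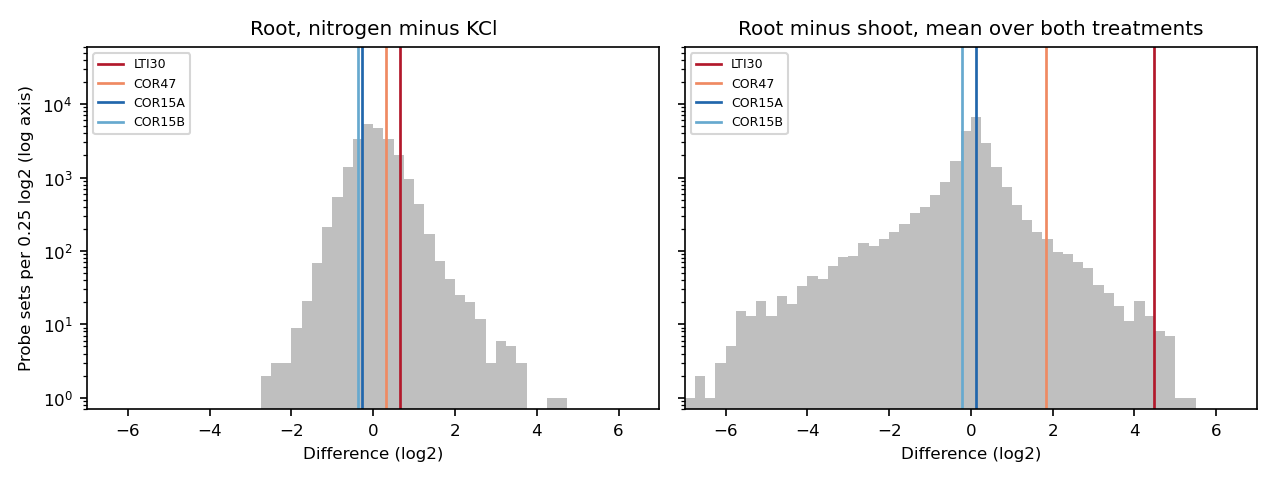
Number of probe sets (vertical log axis) by difference in bins of 0.25 log2 (horizontal axis), for nitrogen minus KCl in roots on the left and for root minus shoot averaged over treatments on the right, with the 4 genes as coloured lines. In the nitrogen comparison all 4 lie in the bulk of the distribution, with LTI30 at 0.66, whereas in the tissue comparison LTI30 at 4.48 lies in the far tail and COR47 at 1.83 on its shoulder.

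Within shoots the 2 dehydrins followed each other from array to array. Both were highest on nitrogen shoot replicate 1, then KCl replicate 2, nitrogen replicate 2 and KCl replicate 1. The green-tissue genes split by the genome that encodes them. The mean of the 20 plastid-encoded psa and psb genes was 10.34 on nitrogen replicate 1 and 11.06 on nitrogen replicate 2, against 11.06 on KCl replicate 1 and 10.62 on KCl replicate 2, and 19 of the 20 were lowest on nitrogen replicate 1. The mean of the 11 nuclear-encoded genes was 10.24 on nitrogen replicate 1 and 10.08 on nitrogen replicate 2, against 10.23 on KCl replicate 1 and 10.38 on KCl replicate 2, and 8 of the 11 were lowest on nitrogen replicate 2. The array with the highest dehydrin signals was thus low for the plastid-encoded genes and not for the nuclear-encoded ones. Over the shoot arrays the plastid-encoded means ran in the reverse order of both dehydrins, with nitrogen replicate 2 and KCl replicate 1 nearly equal. The nuclear-encoded means ran in neither that order nor its reverse. Of 3 root markers that the annotation named, PYK10, a beta-glucosidase of root endoplasmic reticulum bodies, was the only one called higher in roots, by 1.71. Of all probe sets, 19.3% were called higher in roots. PYK10 read 12.66 and 12.63 in nitrogen roots and 12.56 and 12.31 in KCl roots. It was also bright in shoots, at 11.18 and 9.93 with nitrogen and 11.20 and 11.01 with KCl. The root-hair expansins EXPA7 and EXPA18 were not called. The mean of the 3 was 6.89 and 6.50 in nitrogen shoots and 6.84 and 6.88 in KCl shoots, against 7.80 and 7.46 in nitrogen roots and 8.23 and 7.51 in KCl roots. The part of tissue composition in the shoot values of LTI30 and COR47 was not tested.

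**Figure D4:**
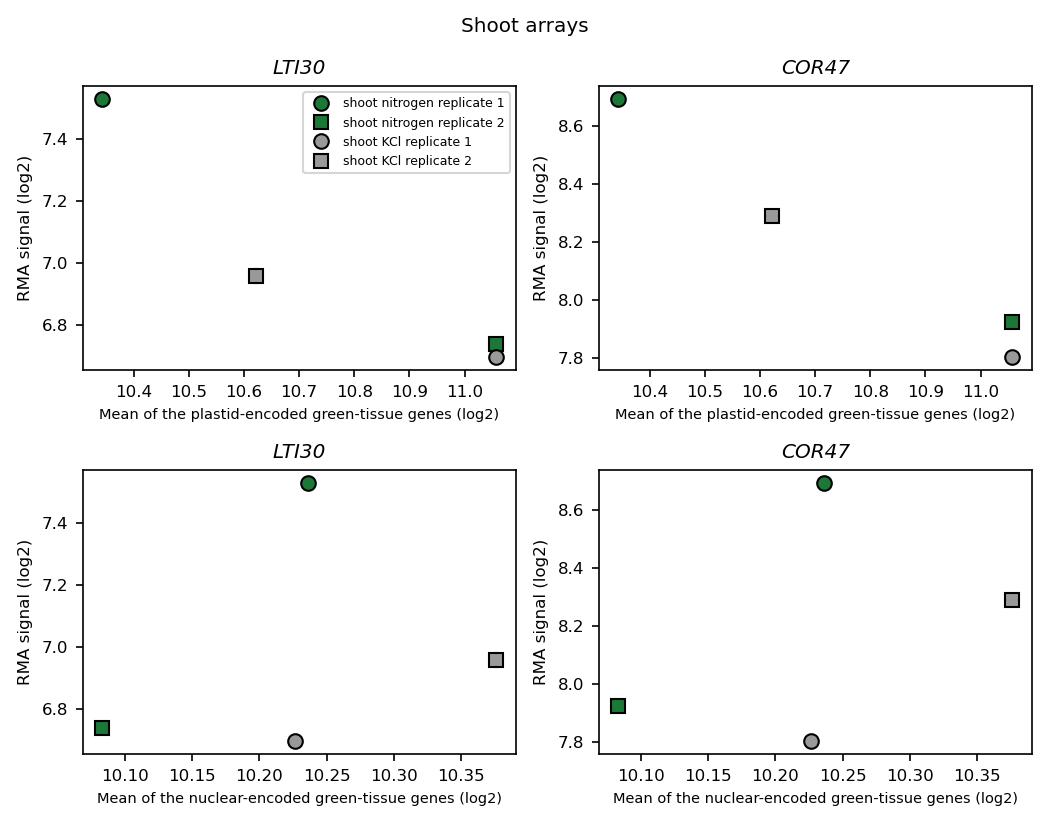
RMA log2 signal of LTI30 (left) and COR47 (right) on the 4 shoot arrays against the mean log2 signal on the same array of 20 plastid-encoded (top) and 11 nuclear-encoded (bottom) green-tissue genes, with nitrogen arrays in green and KCl arrays in grey. Nitrogen replicate 1, with the highest LTI30 (7.53) and COR47 (8.69), has the lowest plastid-encoded mean (10.34). The nuclear-encoded mean is lowest on nitrogen replicate 2 (10.08) and highest on KCl replicate 2 (10.38), so its order differs from that of the dehydrins.

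Over all 8 arrays the profiles of LTI30 and COR47 correlated at 0.984 (Pearson), while COR15A and COR15B correlated at -0.006 with each other. COR15A correlated at 0.40 with either dehydrin, COR15B at -0.53 with COR47 and at -0.56 with LTI30. The arrays fall into a root and a shoot set, so these values take in the tissue split and carry no test. COR15A spanned 0.47 over the 8 arrays and differed by up to 0.26 between replicates. COR15B spanned 0.61 and differed by up to 0.44 between replicates. Both genes lay near the bottom of the signal range, so their correlations cannot show whether their transcripts varied together or with those of the dehydrins. In measured signal the 4 genes gave no single profile over the groups.

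Among 1576 other named genes, those most like LTI30 over the 8 arrays were BGLU15, a beta-glucosidase (r = 0.995), CHR17, a chromatin remodeller (0.995), CCR2 (0.995), NET1A, an actin-binding protein (0.994), and SBT4.12, a subtilase (0.993). All 5 had higher means in roots, for example SBT4.12 with 9.47 in nitrogen roots against 5.03 in nitrogen shoots, and 8.42 in KCl roots against 4.87 in KCl shoots. For COR47 they were CCR2 (0.991), ATSRL1 (0.989), RALFL22, a secreted RALF-like peptide (0.984), BGLU15 (0.981) and GPDHC1, a cytosolic glycerol-3-phosphate dehydrogenase (0.980). BGLU15 and CCR2 stood on both lists. The mean profile of the 4 genes was closest to BGLU15 (0.995), APS4, an ATP sulfurylase (0.995), GPDHC1 (0.992), CCR2 (0.991) and RALFL22 (0.990). The profiles were centred but not scaled before the mean, so it follows LTI30 and COR47, which spanned 5.29 and 2.43 over the arrays. COR15B spanned 0.61 and COR15A 0.47.

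The genes most like COR15A were CHAT, an acyltransferase (0.978), AGL62, a MADS-box factor (0.968), CHX6B, a cation exchanger (0.959), LEA4-5, itself a LEA protein (0.958), and LAC16, a laccase (0.951). All 5 had their highest group mean in KCl roots, for example CHAT at 4.92 against 4.30 in nitrogen roots, and AGL62 at 4.51 against 4.11. The KCl root arrays carried higher signals at the low end of the range, and the part of this in these correlations was not tested. LEA4-5 read 5.03 and 4.84 in nitrogen roots against 5.60 and 6.91 in KCl roots, so its peak fell on KCl root replicate 2, as that of COR15A did. For COR15B they were OTP84, an organelle RNA editing factor (0.952), WLIM2b, a LIM protein (0.912), Cpn60beta4, a chaperonin subunit (0.893), and the cytochromes P450 CYP71B35 (0.872) and CYP84A4 (0.869). Leaving out KCl root replicate 1 left 3 of 5 names for LTI30, 3 for COR47, 1 for COR15A and 0 for COR15B. Leaving out KCl root replicate 2 left 5 for LTI30, 4 for COR47, 2 for COR15A and 2 for COR15B.

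Most partners of these genes in the cold and dehydration pathway carry no name in the annotation at hand. Of 27 other LEA, dehydrin and COR genes listed, 4 were measured under the listed name or locus, of 20 CBF/DREB regulators 1 (STZ, a zinc-finger repressor), and of 28 abscisic acid genes and 22 salt and osmotic genes 0. None of those 5 measured genes was called for nitrogen in either tissue, where 11.4% of all probe sets were called in roots and 0.637% in shoots. To widen the view, 2 further lists were drawn up from names in the annotation, 28 LEA and dehydrin genes and 24 cold, dehydration and salt genes. LEA4-5, AT1G54410, COR27, AT4G33980 and STZ stand on both the earlier and the wider lists.

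Of the 28 LEA and dehydrin genes, 4 had a mean log2 signal above 6. With nitrogen in roots, 0 were called higher and 1 lower, beside 6.94% higher and 4.44% lower of all probe sets. The 1 called was the LEA gene AT4G21020 (-0.76 ± 0.18, adjusted p = 0.0410), at 4.17 and 4.05 in nitrogen roots against 5.08 and 4.66 in KCl roots. The median of the list was -0.18, beside 0.02 over all probe sets, and 8 of the 28 had an unadjusted p under 0.05, near the 30.8% of all probe sets. LEA4-5, with the largest value of the list at -1.32 ± 0.38, had an adjusted p of 0.0686. The count depended on the KCl root arrays, and quantile normalisation left 0. The count over all probe sets also moved when 1 array was left out. In shoots limma called 0 of the 28, beside 0.637% of all probe sets. An unadjusted p under 0.05 was found for 1 of the 28, beside 6.88% of all probe sets. Averaged over the tissues 0 were called higher and 1 lower, the late embryogenesis gene M17 (-0.63 ± 0.11, adjusted p = 0.0382), where 3.21% of all probe sets were called. M17 read 4.06 and 3.88 in nitrogen roots against 4.49 and 4.66 in KCl roots, and 6.55 and 6.22 in nitrogen shoots against 7.12 and 6.96 in KCl shoots. Quantile normalisation left 0 called in this comparison. The count of the list depended on the KCl root arrays here too, and leaving out 1 array also moved the count over all probe sets.

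Between the tissues, averaged over treatments, 5 of the 28 were called higher in roots and 2 lower, beside 19.3% and 16.5% of all probe sets. The higher ones included AT2G46140, a LEA protein (2.34 ± 0.21, adjusted p = 0.000160), DI21, a drought-induced gene (2.32 ± 0.12), and AT1G54410, a small histidine-rich dehydrin (1.33 ± 0.18). AT4G38410 (0.46) and AT2G03850 (0.43) also passed. The genes M17 (-2.44 ± 0.11) and M10 (-1.70 ± 0.32) were called lower in roots. AT1G54410 read 11.76 and 11.66 in nitrogen roots, 11.75 and 11.19 in KCl roots, 10.32 and 10.01 in nitrogen shoots, and 10.09 and 10.62 in KCl shoots. Its root and shoot arrays did not overlap, as with LTI30 and COR47 and with 31.2% of all probe sets. Nor did those of AT2G46140, DI21 and AT4G38410 or, in the other direction, those of M17 and M10. The median of the list was 0.17, beside 0.07 over all probe sets.

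Of the 24 cold, dehydration and salt genes, 16 had a mean above 6. With nitrogen in roots 0 were called higher and 1 lower, again beside 6.94% and 4.44% of all probe sets. It was UGT71B6, a glucosyltransferase that acts on abscisic acid (-0.85 ± 0.21, adjusted p = 0.0498). It read 5.06 and 4.91 in nitrogen roots against 5.78 and 5.89 in KCl roots. Quantile normalisation left 0 of the 24 called, and the count depended on the KCl root arrays, as it did for the LEA and dehydrin genes. The median was 0.04, beside 0.02 over all probe sets.

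In shoots limma called 0 of these 24, with 4 at an unadjusted p under 0.05. Of all probe sets, 0.637% were called in shoots and 6.88% had an unadjusted p under 0.05. The largest value belonged to STZ, at 7.48 and 9.21 in nitrogen shoots against 6.30 and 6.78 in KCl shoots. Its difference of 1.81 ± 0.53 had an adjusted p of 0.358, and its nitrogen replicates were 1.73 apart. Between the tissues 4 of the 24 were called higher in roots and 5 lower, numbers near the 19.3% and 16.5% of all probe sets. OSM34, an osmotin-like protein, was 3.13 ± 0.15 higher in roots, the linker histone HIS1-3, which rises under drought, 3.06 ± 0.37 higher, and tny, a DREB-type factor, 1.77 ± 0.16 higher. With nitrogen, where 23.3% of all probe sets were called, UGT71B6 was called lower in roots at -1.97 ± 0.21 (adjusted p = 0.000694). With KCl, where 31.2% were called, its difference was -0.39 ± 0.21 and was not called. The interaction test, which compares these 2 differences directly, gave -1.59 ± 0.30 for UGT71B6 and did not call it (adjusted p = 0.0735). COR27, a cold-regulated gene of the clock, was called lower in roots at -2.14 ± 0.16. It read 3.89 and 4.05 in nitrogen roots, 4.48 and 4.27 in KCl roots, 5.93 and 6.58 in nitrogen shoots, and 6.23 and 6.51 in KCl shoots. The tissue direction of LTI30 and COR47 was therefore not shared by every gene that carries the cold-regulated name.

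**Figure D5:**
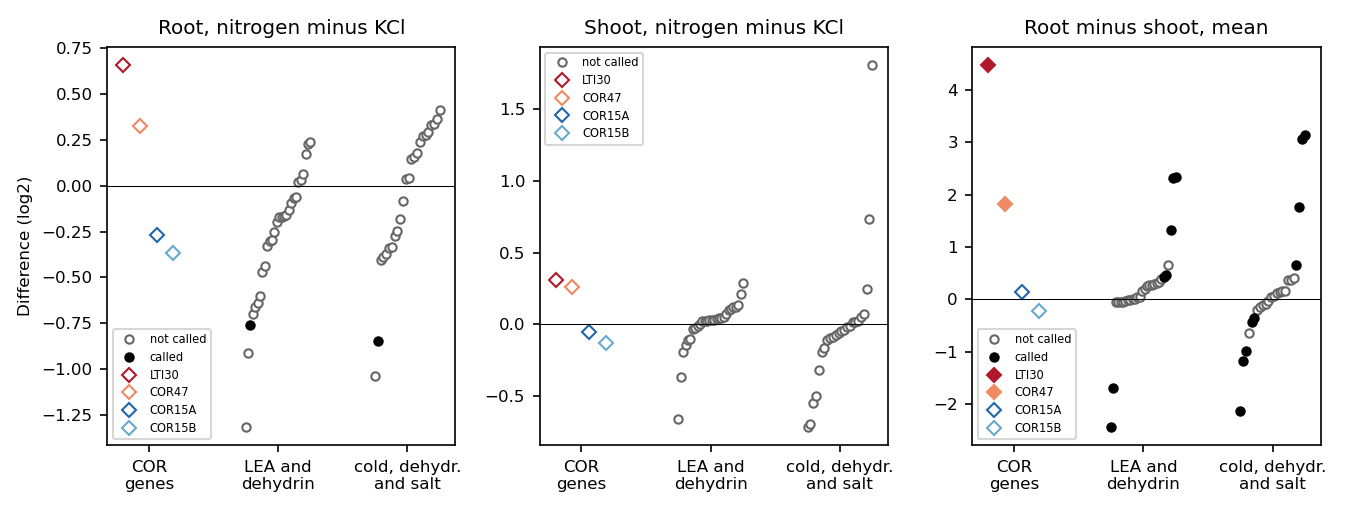
Differences in log2 signal (vertical axis) of the 4 COR genes (diamonds) and of each gene of the 2 wider lists (circles), sorted by size, for nitrogen minus KCl in roots, nitrogen minus KCl in shoots and root minus shoot averaged over treatments, each panel on its own scale. Filled symbols passed the threshold, which in the 2 nitrogen panels only AT4G21020 and UGT71B6 did, both lower with nitrogen in roots, while in the tissue comparison LTI30 and COR47 and members of both lists did.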

How the data were processed

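RNA of 8 Arabidopsis arrays (4 groups of 2) was analysed. The deposited values are log2 signals per probe set, made with RMA per the submitters' processing notes; its version is not given in the sources used here. They were used unscaled, without 64 control probe sets. Of 22746 probe sets, 13513 were annotated to 1 gene, 503 to several and 8730 to none. Every value column belonged to a labelled sample. Using limma 3.58.1 in R 4.3.3, 4 group means were fitted (4 residual degrees of freedom, eBayes), and 7 contrasts were tested two-sided. Intervals are 95% per gene, unadjusted. The fit was tested on simulated data. The number of arrays limits the precision. Per the labels the replicates are biological, but nothing says how plants were divided among them. The p-values set each difference against a spread between these samples that is pooled over the 4 groups. That spread was unequal, with an SD of the replicate difference of 0.489 in root KCl and 0.212 in shoot KCl.

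Genes were named by rule: all 4 members, called genes of a list (up to 6, by size), and the 5 named genes of highest Pearson correlation with each member. Between the tissues the limit of 6 was not kept. All called LEA and dehydrin genes were named, but only some of the called cold, dehydration and salt genes. Other genes named for a large value (LEA4-5, STZ) were chosen after their values were seen. For several probe sets of a gene the one of highest mean was used. Members and lists were chosen with earlier results of these data known, and the 2 wider lists after the annotation was seen. CCR2 was removed from one of them after its values were seen, because its gene number belongs to another gene than the one meant. Alternatives were quantile normalisation, median centring, array weights, no moderation, a trended robust prior, a replicate block, a filter at a mean of 6, the 4 arrays compared alone, and each array left out.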

Additional observations from a re-analysis of the deposited data

How the results depend on the processing

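The 4 genes gave 28 results, each recomputed under 15 to 17 settings. Of the 450 values, 434 kept their direction and side of the threshold, 13 changed sign and 3 passed the threshold where the result as deposited did not. The tissue calls held in every setting, with differences of 4.17 to 5.05 for LTI30 and 1.47 to 2.24 for COR47 over the 3 tissue comparisons. With arrays centred on their median, the COR47 interaction was -0.047 and the COR15A root minus shoot difference in nitrogen -0.040. Leaving out 1 array gave -0.58 to -0.15 for COR15B in roots, -0.36 to -0.14 for its mean nitrogen response, -0.33 to -0.12 for its root minus shoot difference and -0.32 to 0.11 for that difference in KCl. It gave -0.12 to 0.65 for COR47, -0.089 to 0.70 for LTI30 and -0.15 to 0.047 for COR15A in shoots with nitrogen, -0.32 to 0.45 for the COR47 interaction, -0.044 to 0.75 for the LTI30 interaction and -0.0050 to 0.055 for the COR15A tissue difference in nitrogen. A lone array was assumed to vary like the other groups.

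Counts over all probe sets moved more, and the cause was not tested. The root nitrogen count of 2589 became 1212 with quantile normalisation, 270 with array weights, 1099 with no moderation, 1389 with the replicate block, 925 with a mean above 6, 0 with the 4 arrays compared (4901 at an unadjusted p under 0.05), and 124 to 6122 leaving out 1 array. For shoot nitrogen, 145 became 406 with weights, 0 with no moderation (1334 unadjusted), 91 with the block, 62 with 4 arrays and 5 to 183 leaving out 1 array. For the averaged response, 730 became 438 with quantile normalisation, 434 with weights, 252 with no moderation, 331 with the block and 74 to 3769 leaving out 1 array. For the interaction, 110 became 24 with quantile normalisation, 42 with centring, 27 with weights, 34 with no moderation, 282 with the trended robust prior, 0 with the block (3835 unadjusted), 58 with a mean above 6 and 0 to 3178 leaving out 1 array. For root against shoot, 8141 became 5353 with a mean above 6. In KCl, 7108 became 4722 with weights, 4392 with a mean above 6 and 3690 to 9078 leaving out 1 array. In nitrogen, 5297 became 3212 with no moderation and 3347 to 6588 leaving out 1 array.

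Centring changed the share of higher calls to 40.8% in roots, against 61.0% as deposited, to 56.5% against 67.7% for the averaged response and to 54.8% against 70.9% for the interaction, whose median over all probe sets was -0.08 against 0.03. Deviations of same-numbered replicates correlated at -0.118 between nitrogen and KCl roots, -0.380 between nitrogen and KCl shoots, 0.391 between nitrogen roots and shoots and 0.005 between KCl roots and shoots, so the numbers were not taken as pairs. The replicate block changed no call of the 4 genes, and with the numbers crossed in both nitrogen groups, a setting chosen after seeing the data, the interaction count was 37. A mean above 6 gave no value for COR15A and COR15B.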
